A study of Homo sapiens with 8 samples.

Results

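The collagen genes were examined in MDA-MB-157 cells, an established human breast cancer cell line that lacks the estrogen receptor, after 48 hours with glucose at 5 mM (low) or 25 mM (high). All genes whose symbols follow the pattern of the collagen chains, COL with a type number, A and a chain number, were taken from the table of expression values, which gave 43 of the 21059 genes. They were grouped by type number into 11 fibrillar collagens (types 1, 2, 3, 5, 11, 24 and 27), 9 network collagens (types 4, 8 and 10), 4 beaded filament collagens (type 6) and 19 genes of the other classes. The other classes held 10 fibril-associated collagens with interrupted helices, 4 transmembrane collagens, 2 multiplexins, the anchoring fibril collagen COL7A1, and COL26A1 and COL28A1, which were kept apart. Both groups came from the same line, were plated in equal number, and were kept in serum-free medium after a period in low glucose, per the study's methods. There were 4 RNA sequencing libraries at low glucose and 4 at high glucose, and no library with another sugar at matched osmolarity was among the 8. The sources used here do not say whether the 4 replicates were separate cultures. The p-values therefore rest on the spread between these libraries, which may be technical. In the gene tests they rest in part on the spread of other genes of similar level.

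Collagens are secreted proteins built as a triple helix of 3 chains, in which glycine recurs at regular spacing. The fibrillar types form the ropes of connective tissue, the network types form the sheets of basement membranes, type 6 forms beaded microfilaments beside cells, and the fibril-associated types decorate the surface of fibrils. In breast tumors collagen is usually ascribed to fibroblasts, although mesenchymal-like cancer lines can transcribe the genes as well. Values are in CPM, read counts scaled to a common library size before deposition. Differences between the groups are given as high minus low glucose on the log2(CPM + 1) scale, which understates changes of low genes, and were tested with limma over all 21059 genes at an adjusted p of 0.05.

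The libraries held an estimated 9721648 to 12482546 reads, so that 3 reads were worth 0.212 to 0.267 CPM. Of the 43 collagen genes, 28 had a mean of at least 1 CPM over the 8 libraries, 23 of at least 5 CPM and 12 of at least 100 CPM. COL22A1 was at 0 in every library, and 3 genes, COL22A1 among them, stayed under the value of 3 reads in every library. High glucose replicate 1 stood apart from the other libraries in that its values were lower the longer the transcript was. The deviation of a gene was its value in a library minus the mean of the remaining libraries of that group. In high glucose replicate 1 its Spearman coefficient with transcript length was -0.65 over 11223 genes. It was 0.248 to 0.466 in the other high glucose libraries and -0.133 to 0.0562 in the low glucose libraries. Replicate 1 is part of the mean that the other high glucose libraries were set against, so their coefficients are not independent of it. The part of this trend in the results below was tested only by leaving the library out and by removing the trend.

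The label of a line without estrogen receptor was checked against markers. ESR1, the gene of that receptor, was at 0.121 ± 0.0811 CPM at low glucose and at 0.0598 ± 0.0406 CPM at high glucose (SD, n = 4), and both means were below the value of 3 reads. Among 5 epithelial markers, KRT18 reached 234 ± 4.85 CPM at low glucose whereas KRT19 stood at 0.0182 ± 0.0364 CPM and CDH1 at 0.949 ± 0.204 CPM. Of the 5, KRT8 (-0.57) and KRT18 (-0.46) passed as lower at high glucose and EPCAM (0.54) as higher. VIM, a mesenchymal marker, reached 4091 ± 28.5 CPM in low glucose and 2967 ± 210 CPM in high glucose. Of the 3 mesenchymal markers, VIM and FN1 fell with the collagens and CDH2 rose. The part of these epithelial and mesenchymal changes in the results below was not tested. The summed leukocyte markers lay between 9.55 and 14.3 CPM. At low glucose PTPRC was at 0.0997 ± 0.0758 CPM and CD68 at 11.1 ± 1.72 CPM. The summed osteoblast markers lay at or under 0.511 CPM in every library, and the endothelial markers at or under 3.13 CPM. Of the 3 endothelial markers, PECAM1 passed as higher and CDH5 and VWF as lower, with group means of at most 2.13 CPM. Only 2 of 3 members were in the table for each of the leukocyte, osteoblast and chondrocyte lists. The chondrocyte sum lay between 16.1 and 18.8 CPM at low glucose and between 23.4 and 27.2 CPM at high glucose. Most of that sum came from MATN3, which passed as higher.

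Collagen transcripts were lower at high glucose. Their summed CPM stood at 30198, 31926, 31664 and 31470 in the low glucose libraries and at 13460, 13969, 14105 and 13179 in the high glucose libraries, so that the mean at high glucose was 43.7% of the mean at low glucose. As a share of all values, collagens took between 3.43% and 3.63% in the low glucose libraries and between 1.53% and 1.63% in the high glucose libraries. In CPM, without regard to transcript length, COL3A1 ranked 2 of all genes in each low glucose library and 3 in each high glucose library. The change of COL3A1 made up 66.0% of the fall of the summed collagen CPM, but the sum without it also fell, from 13993 ± 528 to 7998 ± 383 CPM (SD, n = 4). In bulk RNA, fewer cells that carry these transcripts and less of the transcripts per cell cannot be told apart.

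Of the 43 genes, 22 passed the test as lower at high glucose and 5 as higher. Over all genes, 24.8% were lower and 22% higher by the same rule. Among the 23 collagen genes of at least 5 CPM, 17 were lower and 2 higher, against 33.3% of genes lower and 33.6% higher among the 11297 genes of that level. For the same 17 genes every high glucose library lay under every low glucose library, and for the same 2 every high glucose library lay above, where 32.5% of all genes at that level did not overlap in the lower direction and 32.5% in the higher. Among the 12 collagen genes of at least 100 CPM, 11 were lower, against 28.5% of genes. A fall of 1 or more on the log2 scale was found for 7 of the 23, namely COL1A1, COL1A2, COL3A1, COL4A1, COL4A2, COL14A1 and COL26A1, against 3.6% of genes. The median difference was -0.75 for the 23 collagen genes and -0.0071 for all genes of that level. Over all 43 the median was -0.40, and over all 21059 genes -0.0092. Without high glucose replicate 1, the library that stood apart, 22 collagen genes were lower and 5 higher.

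**Figure D1:**
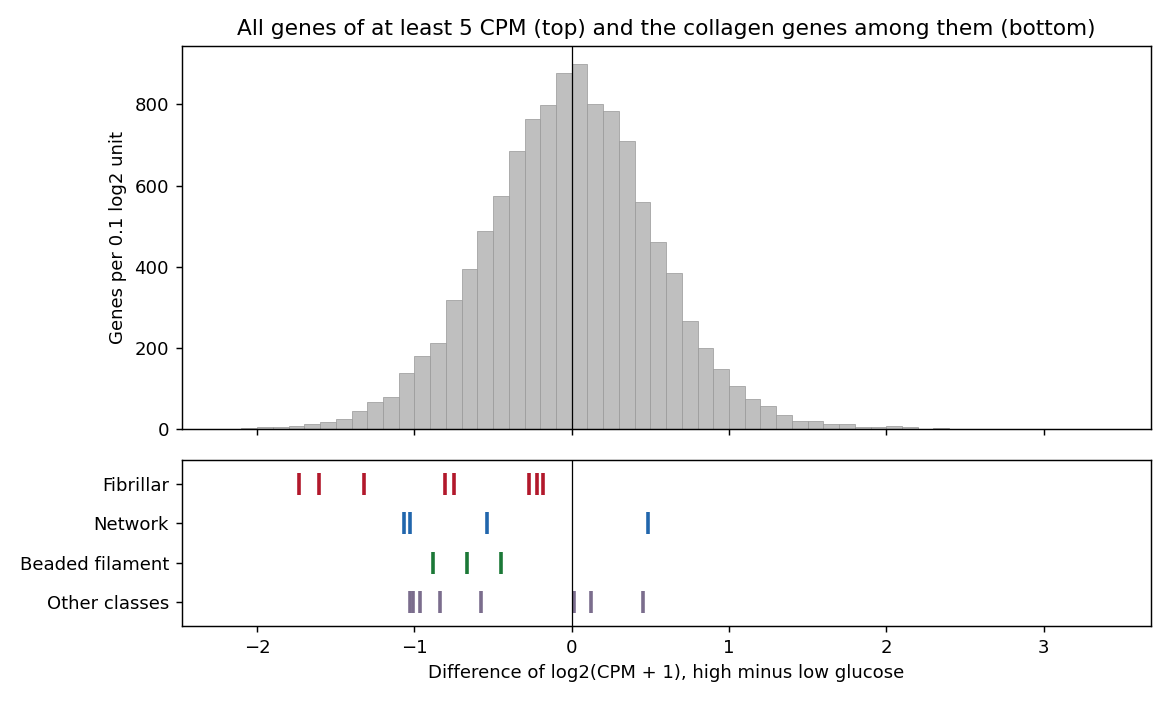
The upper panel shows, for the 11297 genes with a mean of at least 5 CPM, the number of genes per step of the high minus low glucose difference on the log2(CPM + 1) scale, and the lower panel marks the 23 collagen genes among them by class. The collagen marks lie mostly left of 0, with the fibrillar COL1A2, COL3A1 and COL1A1 farthest to the left and COL8A1 and COL16A1 to the right.

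The summed levels of the classes are given as a description. The summed CPM of the fibrillar collagens at high glucose was 38.2% of its low glucose mean, that of the network collagens 49.5%, that of the beaded filament collagens 59.5% and that of the other classes 76.2%. The share of the fibrillar class in the collagen sum was 71.7% to 72.7% in the low glucose libraries and 62.0% to 65.1% in the high glucose libraries. The network class took between 13.8% and 14.3% at low glucose and between 15.05% and 16.4% at high glucose. The beaded class took between 7.97% and 8.78% at low glucose and between 10.6% and 11.9% at high glucose. The other classes took between 5.43% and 5.49% at low glucose and between 7.96% and 10.7% at high glucose, where the lowest value was that of high glucose replicate 1. None of these ranges overlapped between the groups. These shares add up to a whole, so a fall of 1 class raises the others, and they are given without a test. Per kilobase of transcript, the fibrillar share was 71.5% ± 0.565 at low and 62.5% ± 1.02 at high glucose (SD, n = 4). In numbers of genes, 8 of 11 fibrillar, 4 of 9 network, 3 of 4 beaded and 7 of 19 other collagens were lower, while 2 network, 1 beaded and 2 other collagens were higher, beside 24.8% lower and 22% higher over all genes.

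**Figure D2:**
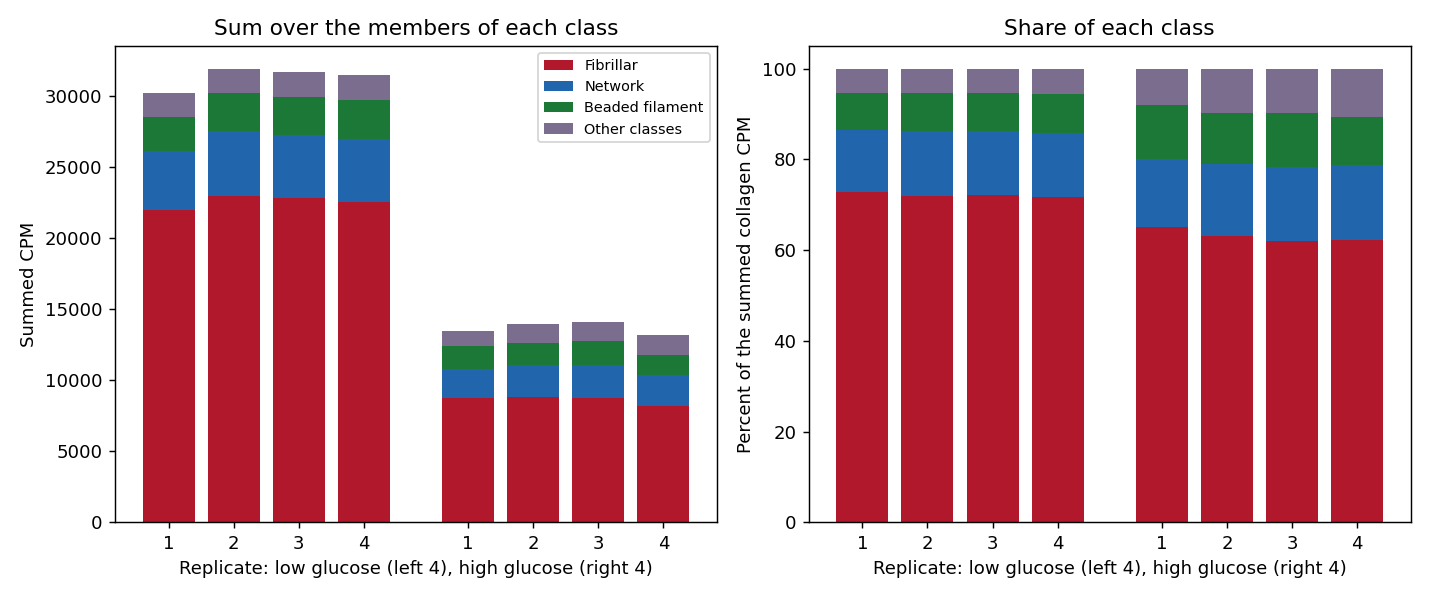
Stacked bars for each of the 8 libraries show the summed CPM of the 4 collagen classes (left) and their percent of the summed collagen CPM (right). The bars of the 4 high glucose libraries reach 13179 to 14105 CPM against 30198 to 31926 CPM at low glucose, and the fibrillar part is smaller at high glucose in both panels.

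Of the 43 genes, the chains of types I and III had the largest falls on the log2 scale. COL3A1 encodes the chain of type III collagen, which forms thin fibrils in soft tissue (ENSG00000168542.14, chromosome 2, 188974373 to 189012746 in GRCh38.p14). It stood at 16989.5, 17607, 17514 and 17174 CPM at low glucose and at 5829.9, 5768, 5671 and 5453 CPM at high glucose. The high glucose mean was 32.8% of the low glucose mean, and on the log2 scale the gene fell by 1.61 (SE 0.17, adjusted p = 0.000215). With quantile normalization the difference was only -0.51, which still passed (adjusted p = 0.0191). That scaling gives each rank the same value in every library, and COL3A1 ranked 2 at low and 3 at high glucose. The -0.51 is therefore the gap between those ranks and does not measure the size of the fall. COL1A1 encodes the first chain of type I collagen, the main fibrillar collagen of the body (ENSG00000108821.13, chromosome 17, 50184101 to 50201631). Its values were 2012, 2145, 2178 and 2246 CPM at low glucose and 921, 885, 887 and 752 CPM at high glucose, and it fell by 1.32 (SE 0.07, adjusted p = 1.23e-05). COL1A2 encodes the partner chain of type I (ENSG00000164692.17, chromosome 7, 94394895 to 94431227). It was present at 18.2, 18.3, 19.5 and 18.9 CPM at low glucose and at 4.09, 5.02, 4.95 and 5.78 CPM at high glucose, and it fell by 1.73 (SE 0.09, adjusted p = 8.18e-06). Neither group of libraries overlapped the other for any of these 3 genes. Ordered by the fall over the 11297 genes of at least 5 CPM, COL1A2 ranked 21, COL3A1 ranked 34 and COL1A1 ranked 117.

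Type V collagen, which joins type I in mixed fibrils and limits their diameter, fell less. COL5A1 stood at 976, 1072, 1034 and 1078 CPM at low glucose and at 557, 625, 635 and 561 CPM at high glucose, and fell by 0.81 (SE 0.06, adjusted p = 3.91e-05). COL5A2 stood at 991, 1032, 1019.7 and 989 CPM against 559.8, 603, 613 and 619.998 CPM, and fell by 0.75 (SE 0.04, adjusted p = 9.27e-06). Both separated the groups. COL5A2 lies beside COL3A1 on chromosome 2, with 19151 bases and no other RefSeq gene between them, and these neighbors fell by 0.75 and 1.61, a difference that was not tested. COL5A3, a rarer chain of the same type, had the smallest change that passed among the fibrillar genes. It stood at 950.2, 1048, 1007 and 1025 CPM at low glucose and at 861, 909, 904 and 789 CPM at high glucose, and fell by 0.22 (SE 0.06, adjusted p = 0.0158). This call did not hold with quantile normalization (-0.06, adjusted p = 0.559).

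The minor fibrillar genes stood at low levels and mostly overlapped between the groups. COL27A1, a fibrillar collagen of cartilage, stood at 17.6, 18.6, 22.8 and 21.8 CPM against 15.7, 19.3, 16.2 and 19.6 CPM, and the groups overlapped (-0.18, SE 0.11, adjusted p = 0.222). COL11A2, a chain of the cartilage type XI, stood at 6.001, 7.37, 8.15 and 8.81 CPM against 6.35, 5.42, 5.69 and 6.84 CPM, also with overlap (-0.27, SE 0.12, adjusted p = 0.111). Without low glucose replicate 1, its lowest value in that group, the difference was -0.37 with an adjusted p of 0.0276. COL24A1 went from 3.76 ± 0.690 to 1.99 ± 0.250 CPM (SD, n = 4) and passed as lower. COL11A1, at 1.29 ± 0.408 against 0.446 ± 0.294 CPM, passed as lower with overlapping libraries, and lost the call without low glucose replicate 1, 3 or 4 (adjusted p = 0.0603, 0.0606 and 0.051). COL2A1, the chain of the main cartilage collagen, stayed between 0 and 0.510 CPM.

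**Figure D3:**
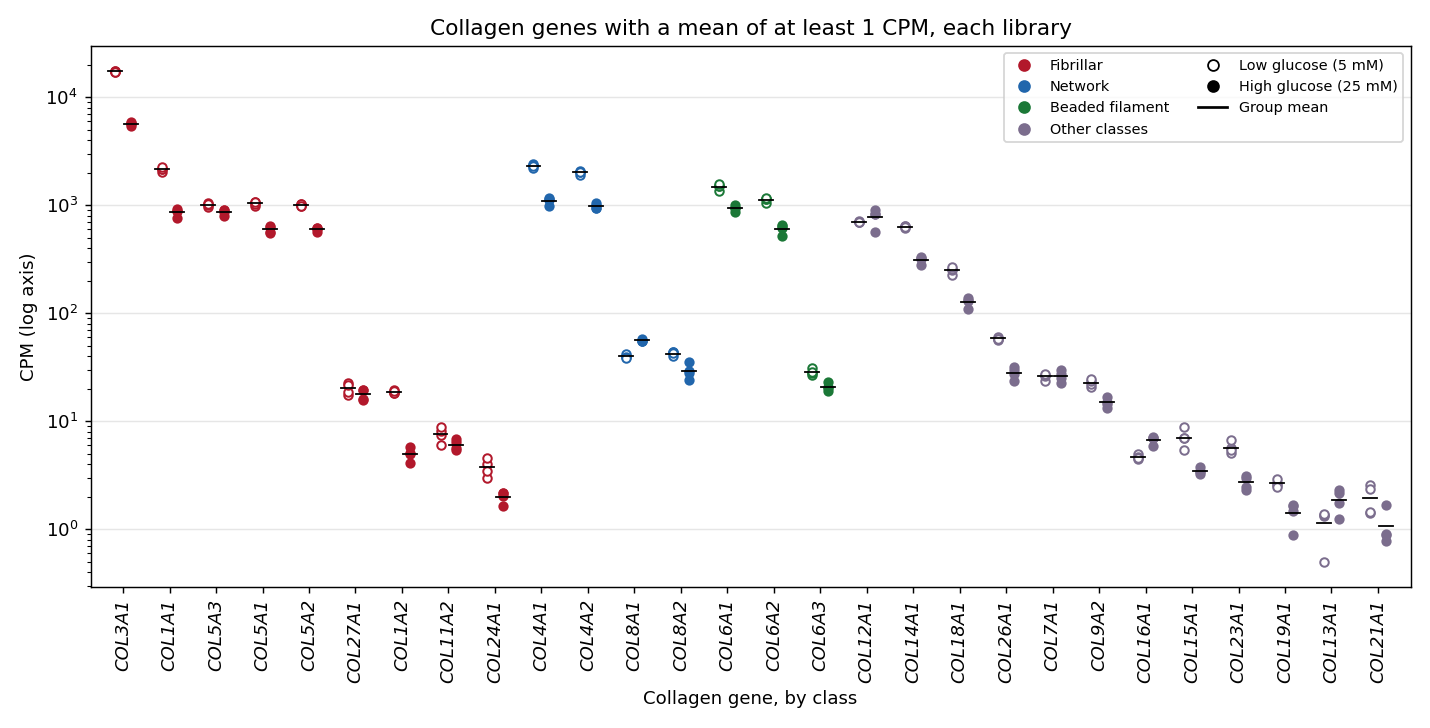
Each point is 1 library, on a log axis of CPM, for the 28 collagen genes with a mean of at least 1 CPM, ordered by class and by level, with open points for low glucose, filled points for high glucose and black bars for group means. COL3A1 is set apart at the top, with open points at 16989.5 to 17607 CPM and filled points at 5453 to 5829.9 CPM, and COL8A1 and COL16A1 have filled points above the open ones.

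In the network class, the ubiquitous chains of basement membrane collagen fell together. COL4A1 stood at 2204, 2396, 2343 and 2289.9 CPM at low glucose and at 990.3, 1117, 1174 and 1129 CPM at high glucose, and fell by 1.07 (SE 0.06, adjusted p = 1.6e-05). COL4A2, its partner in the trimer, stood at 1887, 2078, 2044 and 2038 CPM against 943, 1011, 1051 and 948 CPM, and fell by 1.03 (SE 0.05, adjusted p = 9.8e-06). No library of 1 group reached the range of the other for either gene. Both genes lie head to head on chromosome 13, COL4A1 on the minus and COL4A2 on the plus strand, and share the stretch between their start sites as promoter. The whole stretch of 126 bases between the RefSeq starts is shown, since it carries both genes, as are, for comparison, the 135 bases that lie outside all RefSeq transcripts of the second head-to-head pair, COL4A4 (minus strand) and COL4A3 (plus strand), whose start sites are 418 bases apart. Both are RefSeq sequence of GRCh38.p14, read 5′ to 3′ on the plus strand, and the capitals mark 2 motifs on either strand, the CCAAT box, named by its letters, and the GC box with the letters GGGCGG.
COL4A1 and COL4A2, chr13:110307158-110307283: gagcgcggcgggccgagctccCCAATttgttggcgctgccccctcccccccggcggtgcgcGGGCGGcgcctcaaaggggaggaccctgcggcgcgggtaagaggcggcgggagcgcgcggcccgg
COL4A4 and COL4A3, chr2:227164489-227164623: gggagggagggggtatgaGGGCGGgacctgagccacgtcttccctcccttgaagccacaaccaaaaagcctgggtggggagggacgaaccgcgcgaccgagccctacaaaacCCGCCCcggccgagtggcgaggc
The stretch of COL4A1 and COL4A2 held 1 CCAAT box and 1 GC box and was 80.2% G or C. The 135 bases between COL4A4 and COL4A3, which are only a part of the stretch between those start sites, held no CCAAT box and 2 GC boxes and was 68.1% G or C. Neither printed sequence held TATAAA on either strand. In the RefSeq promoter windows, from 250 bases before to 50 after the start, the letters of the CCAAT box were found for 12 of the 32 collagen genes that had a window and for 39.7% of all 27305 genes. The letters of the GC box were found for 21 of the 32 and for 48.3% of all genes, and TATAAA for 7 of the 32 and 14% of all. These are matches of letters, not sites of binding.

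COL4A4 and COL4A3, chains of the specialized basement membranes of kidney and lung, were at low levels, between 0.166 and 1.98 CPM over the 8 libraries. COL4A4 was at 0.250, 0.166, 0.510 and 0.364 CPM at low glucose and at 1.34, 1.04, 1.98 and 1.87 CPM at high glucose, without overlap, and passed as higher (0.94, SE 0.14, adjusted p = 0.00136). COL4A3 was at 0.462 ± 0.0815 against 0.618 ± 0.298 CPM and did not pass (adjusted p = 0.462). COL4A5 and COL4A6 did not exceed 0.267 CPM in any library. COL4A6 passed only without high glucose replicate 2 (0.22, adjusted p = 0.0171). The type VIII chains, which form hexagonal lattices under endothelium and in the eye, went opposite ways. COL8A1 stood at 40.1, 41.5, 39.1 and 38.2 CPM at low glucose and at 54.99, 55.8, 57.2 and 55.7 CPM at high glucose, a rise of 0.48 (SE 0.03, adjusted p = 1.52e-05). COL8A2 stood at 43.6, 43.2, 40.01 and 42.3 CPM against 35.1, 28.1, 29.03 and 24.1 CPM, and fell by 0.54 (SE 0.10, adjusted p = 0.00435). Every high glucose library was above the low glucose libraries for COL8A1 and under them for COL8A2. COL10A1, the collagen of hypertrophic cartilage, passed as lower at 0.832 ± 0.278 against 0.389 ± 0.175 CPM (SD, n = 4), but lost the call when any of 6 libraries, all but high glucose replicate 1 and low glucose replicate 4, was omitted (adjusted p from 0.052 to 0.0919) and with quantile normalization.

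The type VI chains, which assemble into beaded microfilaments of the pericellular matrix, all fell where they were well expressed. COL6A1 stood at 1342, 1516, 1504 and 1577 CPM at low glucose and at 942, 939, 1010.3 and 857 CPM at high glucose, and fell by 0.66 (SE 0.07, adjusted p = 0.00023). COL6A2 stood at 1038, 1129.99, 1132 and 1158 CPM against 645, 612, 653 and 514 CPM, and fell by 0.88 (SE 0.08, adjusted p = 0.00013). COL6A3, the largest chain, stood at 26.8, 31.2, 28.2 and 28.8 CPM against 18.8, 20.9, 20.4 and 23.2 CPM, and fell by 0.45 (SE 0.07, adjusted p = 0.0016). The groups did not overlap for any of the 3. COL6A6 was at 0.690 ± 0.083 against 1.21 ± 0.292 CPM (SD, n = 4) and passed as higher without overlap (0.38, adjusted p = 0.0148).

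**Figure D4:**
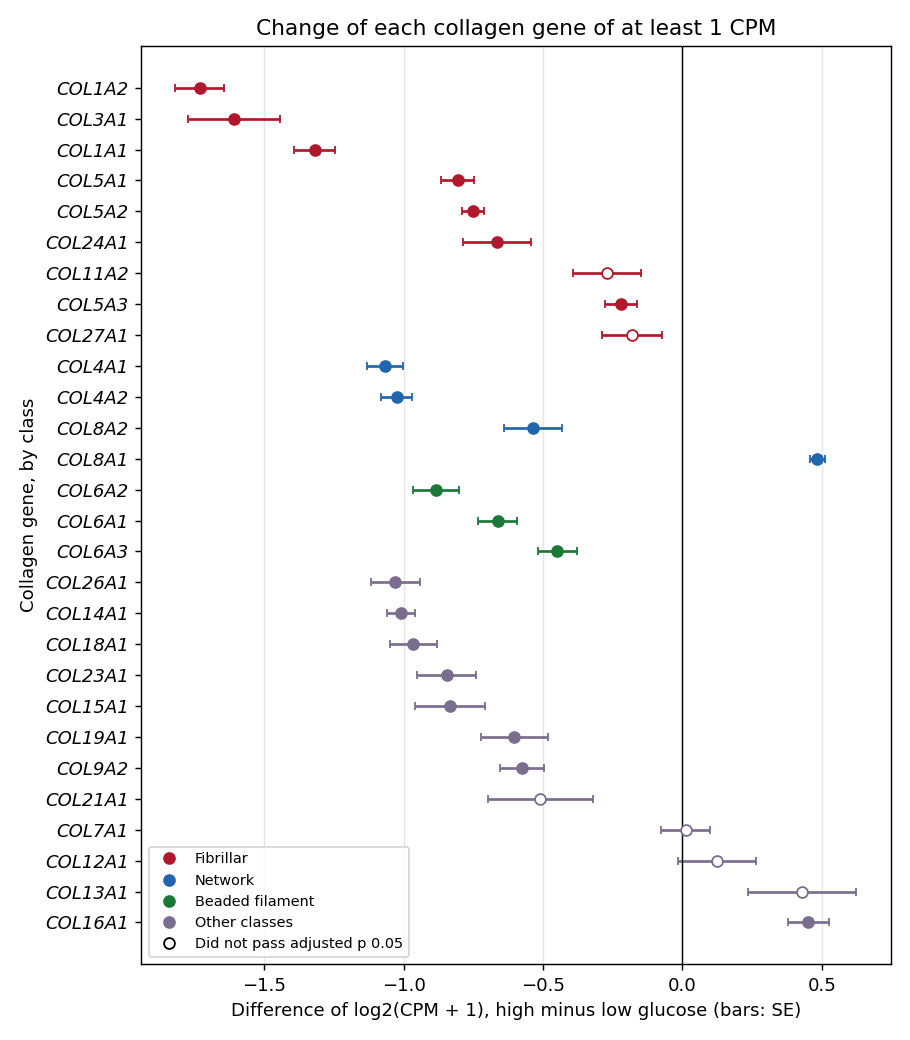
For each of the 28 collagen genes of at least 1 CPM, grouped by class, the point gives the high minus low glucose difference of log2(CPM + 1) and the bar its SE from limma, with open points for genes that did not pass an adjusted p of 0.05. The points run from -1.73 for COL1A2 to 0.48 for COL8A1, and only COL8A1 and COL16A1 have filled points above 0.

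Outside these 3 classes the directions were mixed. COL14A1, a fibril-associated collagen that binds decorin and fibril surfaces, stood at 609, 639.9, 635 and 621 CPM at low glucose and at 280.2, 317, 320.3 and 328 CPM at high glucose, and fell by 1.01 (SE 0.05, adjusted p = 8.43e-06). COL12A1, its close relative on fibrils, did not. It stood at 692, 709, 699 and 705 CPM at low glucose and at 564, 819, 819.6 and 899 CPM at high glucose, so that 3 high glucose libraries were above all low glucose libraries and high glucose replicate 1 was under them (0.12, SE 0.14, adjusted p = 0.516). Without high glucose replicate 1 the difference was 0.27 and passed as higher (adjusted p = 0.00153). With the trend over transcript length removed, the difference was 0.11 and did not pass (adjusted p = 0.0797, or 0.0617 with the replicate block). The transcript of COL12A1, at 11725 bases, was the longest among the 43. COL16A1, at 4.92, 4.64, 4.50 and 4.59 CPM against 7.20, 7.01, 6.93 and 5.87 CPM, rose by 0.45 without overlap (SE 0.07, adjusted p = 0.00193). COL9A2, a chain of a collagen that coats cartilage fibrils, stood at 20.5, 22.2, 23.5 and 24.5 CPM against 14.4, 16.7, 15.2 and 13.3 CPM, and fell by 0.58 (SE 0.08, adjusted p = 0.000926).

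The multiplexins, basement membrane collagens whose ends can be cleaved to endostatin-like fragments, both fell. COL18A1 stood at 224, 251, 254 and 266 CPM at low glucose and at 131, 129.7, 139 and 109 CPM at high glucose (-0.97, SE 0.08, adjusted p = 9.19e-05). COL15A1 stood at 5.42, 6.96, 7.05 and 8.74 CPM against 3.39, 3.27, 3.46 and 3.73 CPM (-0.83, SE 0.13, adjusted p = 0.00137). The groups were separate for both. COL26A1 stood at 56.5, 60.6, 57.9 and 58.2 CPM against 31.9, 29.8, 27.5 and 23.6 CPM, also separate, and fell by 1.03 (SE 0.09, adjusted p = 7.9e-05). COL7A1, which forms the anchoring fibrils under epithelia, stood at 23.7, 26.1, 27.01 and 27.1 CPM against 27.5, 29.8, 25.3 and 22.6 CPM. These ranges overlapped, and the difference of 0.01 (SE 0.09, adjusted p = 0.965) took the other sign in some alternatives.

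Among the genes of 1 to 5 CPM in the other classes, COL23A1, a transmembrane collagen, went from 5.68 ± 0.667 to 2.72 ± 0.392 CPM and COL19A1 from 2.65 ± 0.174 to 1.42 ± 0.367 CPM (SD, n = 4), and both passed as lower. COL21A1 was at 1.94 ± 0.596 against 1.06 ± 0.421 CPM and did not pass (adjusted p = 0.0616). It passed as lower without high glucose replicate 4 (-0.64, adjusted p = 0.0212), when only genes of at least 1 CPM were tested (adjusted p = 0.025) and with the trend over transcript length removed (adjusted p = 0.0123). COL13A1 was at 1.14 ± 0.431 against 1.87 ± 0.480 CPM and did not pass (adjusted p = 0.114). Of the 7 genes under 1 CPM, which are COL9A1, COL9A3, COL17A1, COL20A1, COL22A1, COL25A1 and COL28A1, only COL17A1 passed, as higher. It was at 0.039 ± 0.0453 against 0.221 ± 0.122 CPM, with overlap, and lost the call when any of 7 libraries, all but high glucose replicate 2, was omitted (adjusted p from 0.0548 to 0.0938). COL28A1 did not pass (adjusted p = 0.0808) except without low glucose replicate 3 (-0.49, adjusted p = 0.0124).

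Since chains of 1 type can, but need not, share a trimer, their ratio was compared within each library. This was done for 6 of 11 listed pairs, those in which both chains reached a mean of 1 CPM. The ratio was taken as the log2 of (CPM + 1) of one chain over the other, and tested with an exact permutation test over the 70 assignments of the libraries (2-sided), whose smallest possible p is 0.0286. At that p a ratio could not pass alone, since the adjustment required several of the 6 to reach it. None of these 6 passed after adjustment over them, which does not show that the ratios were unchanged. COL8A1 over COL8A2 was at -0.12, -0.06, -0.03 and -0.15 at low glucose and at 0.63, 0.97, 0.95 and 1.18 at high glucose, a difference of 1.02 without overlap (exact p = 0.0286, adjusted p = 0.0857). COL6A1 over COL6A2 was at 0.37, 0.42, 0.41 and 0.45 at low glucose and at 0.55, 0.62, 0.63 and 0.74 at high glucose, also without overlap (0.22, exact p = 0.0286, adjusted p = 0.0857). COL4A1 over COL4A2 overlapped between the groups, with means of 0.20 ± 0.02 at low and 0.16 ± 0.07 at high glucose (exact p = 0.343, adjusted p = 0.411). COL5A1 over COL5A2 likewise overlapped, with 0.04 ± 0.06 against -0.01 ± 0.09 (exact p = 0.429, adjusted p = 0.429).

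The remaining 2 ratios were far from even. COL1A1 over COL1A2 was at 6.71, 6.80, 6.74 and 6.82 at low glucose and at 7.50, 7.20, 7.22 and 6.80 at high glucose, where high glucose replicate 4 lay within the low glucose range (0.41, exact p = 0.0857, adjusted p = 0.129). Per kilobase of transcript, COL1A1 was 98.4 ± 3.45 times COL1A2 at low glucose and 152 ± 33.2 times at high glucose (SD, n = 4). Type I collagen is usually a trimer that holds COL1A1 and COL1A2 chains together. COL6A3 over COL6A1 had a mean of -5.64 ± 0.08 at low and of -5.43 ± 0.20 at high glucose (exact p = 0.0857, adjusted p = 0.129). Per kilobase, COL6A3 was 0.00774 ± 0.000433 of COL6A1 at low glucose and 0.00893 ± 0.00131 at high glucose. Of the 31-base words of the transcripts, COL1A2 shared 0.0992% with other genes and COL6A3 none. Leaving out high glucose replicate 4 brought 4 of the 6 ratios past the threshold (adjusted p = 0.0429), those of types I, IV, VIII and COL6A1 over COL6A2, with differences of 0.54, -0.07, 0.94 and 0.18. The ratios of type VIII and of COL6A1 over COL6A2 already had the smallest possible p with all libraries, with larger differences (1.02 and 0.22). Their adjusted p fell only because the ratios of types I and IV then reached the smallest p as well.

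The list left out 3 further pairs of 1 type at that level, which were compared after the data had been seen. COL5A1 over COL5A3 was at 0.04, 0.03, 0.04 and 0.07 in the low glucose libraries and at -0.63, -0.54, -0.51 and -0.49 in the high glucose libraries, a difference of -0.59 without overlap. COL5A2 over COL5A3 was at 0.06, -0.02, 0.02 and -0.05 against -0.62, -0.59, -0.56 and -0.35, a difference of -0.53 without overlap. Relative to COL5A3, both other type V chains were thus lower in every high glucose library than in any low glucose library. COL6A3 over COL6A2 had a mean of -5.23 ± 0.07 at low and of -4.79 ± 0.27 at high glucose, also without overlap. For each of these 3 the exact p was 0.0286, the smallest possible, and adjusted over all 9 pairs of chains it was 0.0514. Over the 9 pairs the adjusted p of COL8A1 over COL8A2 and of COL6A1 over COL6A2 was also 0.0514, and none of the 9 passed. A pass would have needed more of the 9 pairs to reach the smallest possible p.

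**Figure D5:**
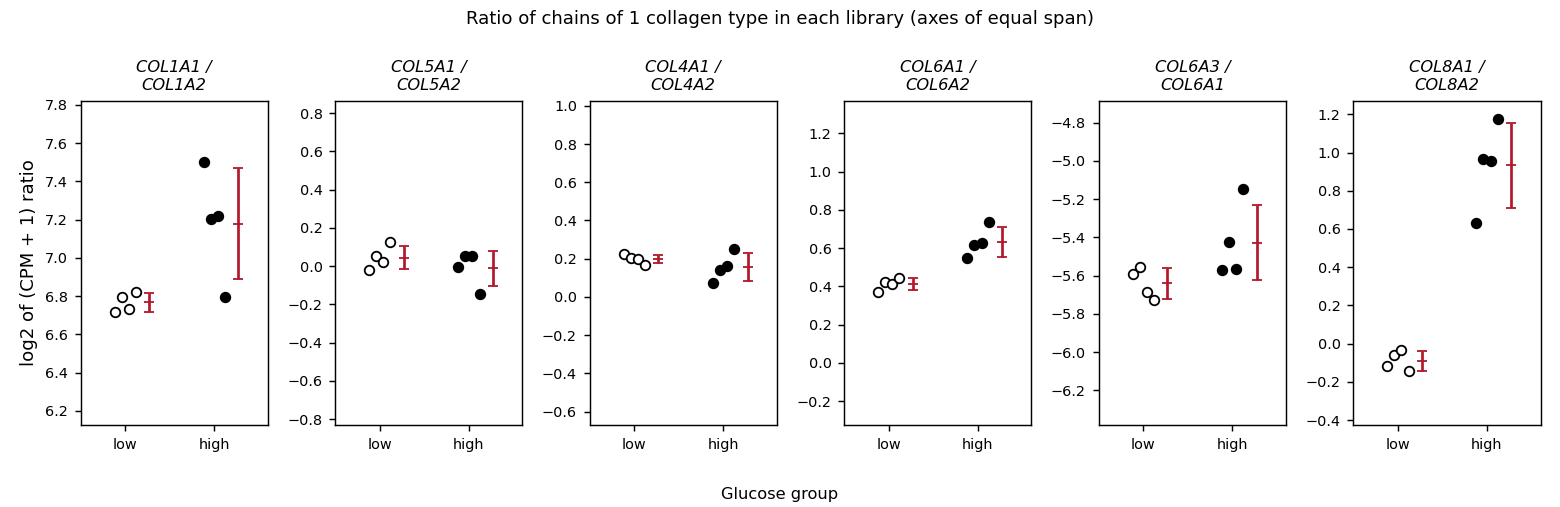
Each panel shows, for 1 of the 6 listed pairs of chains, the log2 ratio of (CPM + 1) in the 4 low glucose libraries (open points) and the 4 high glucose libraries (filled points), with the mean and SD in red, on axes of equal span. The points of COL8A1 over COL8A2 and of COL6A1 over COL6A2 do not overlap between the groups, those of COL5A1 over COL5A2 and COL4A1 over COL4A2 do, and COL1A1 over COL1A2 lies near 7 in both groups.

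The genes that fold, export, trim, cross-link, organize, bind and cut collagen were counted from 8 lists compiled from general knowledge, which held 79 members, 71 of them in the table. Of the 71, 34 were lower and 19 higher, with a median difference of -0.21, and 50 had a mean of at least 5 CPM. Over all genes, 24.8% were lower and 22% higher, and among genes of at least 5 CPM 33.3% and 33.6%, and the counts of each list below stand beside these shares as a description. In the endoplasmic reticulum, 11 of 18 enzymes and chaperones were lower and 4 higher. CRTAP, a subunit of the prolyl 3-hydroxylase complex, fell by 0.91 from 361 ± 2.02 to 191 ± 8.98 CPM. PLOD1, a lysyl hydroxylase, fell by 0.71 from 311 ± 6.35 to 190 ± 7.18 CPM, and P4HA2, a catalytic subunit of prolyl 4-hydroxylase, fell by 0.60 from 135 ± 4.31 to 88.7 ± 2.27 CPM. The 4 that rose, named here after their values were seen, were P4HA1, P3H2, PLOD2 and FKBP14. P4HA1 and PLOD2 belong to the same enzyme families as P4HA2 and PLOD1 and went the opposite way. P4HA1 went from 97.8 ± 3.13 to 133 ± 4.13 CPM and PLOD2 from 252 ± 4.87 to 367 ± 16.3 CPM (SD, n = 4).

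Of 8 genes of the export of large cargo from the endoplasmic reticulum, 4 were lower and 2 higher, and all 8 were at 5 CPM or more, where 33.3% of genes were lower and 33.6% higher. SAR1A and SAR1B, the small GTPases that start the coat of transport vesicles, rose by 0.64 and 0.44, and PREB, their exchange factor, fell by 0.54. Among the genes that cleave procollagen, 8 of 10 were in the table, with 5 lower and 2 higher. PCOLCE, an enhancer of the cleavage of the C-terminal propeptide, fell by 1.35 from 837 ± 26.8 to 330 ± 45.4 CPM. ADAMTS2, which removes the N-terminal propeptide, fell by 0.98, and BMP1, the C-terminal proteinase, by 0.80. Of the 5 cross-linking oxidases, 3 were lower and 1 higher. LOXL1 fell by 1.21 from 29.9 ± 2.37 to 12.4 ± 1.07 CPM and LOXL3 by 0.58, whereas LOX rose by 0.94 from 5.23 ± 0.708 to 10.9 ± 0.127 CPM.

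Of the 9 measured organizers of fibrils, 6 were lower and 1 higher. LUM fell by 1.36 from 901 ± 21.3 to 351 ± 16.3 CPM, BGN by 0.99 from 338 ± 11.02 to 170.2 ± 8.67 CPM, and DCN by 1.22 from 306 ± 5.91 to 131 ± 10.8 CPM (SD, n = 4). These 3 encode small leucine-rich proteoglycans that bind collagen. Of the 7 measured receptors, 3 were lower and 1 higher: ITGA11, a collagen-binding integrin chain, fell by 1.20, DDR2, a receptor tyrosine kinase for fibrillar collagen, fell by 0.59, and ITGB1, the shared beta chain, rose by 0.30. Among 5 measured collagenases 2 were lower and 2 higher, with MMP14 lower by 0.85 at 45.0 ± 2.56 against 81.8 ± 3.19 CPM and MMP2 at 240.3 ± 4.70 against 290.1 ± 5.05 CPM.

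Of the 11 transcription factors known to act on collagen genes, 6 were higher and none of the 11 lower, where 22% of all genes were higher and 33.6% of those of at least 5 CPM, a level that 7 of the 11 reached. SOX9, which drives cartilage collagens, rose by 0.51 from 28.7 ± 1.503 to 41.3 ± 1.37 CPM, SP3 by 0.40 and SMAD2 by 0.27. For the genes of these lists given above with their values, the adjusted p of limma was 0.00123 or less.

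Some limits of the table touch single genes. In the annotation used for lengths, 12 of the 43 genes have an exon that overlaps an exon on the other strand, COL1A1, COL4A2, COL5A1, COL5A3, COL8A1, COL15A1, COL16A1 and COL18A1 among those of at least 5 CPM. Whether the counting used strand is not given in the sources used here, so reads of such partners cannot be told apart. COL8A1 shared 2.06% of its 31-base words with other genes, and all other collagen genes shared 0.574% or less.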

How the data were processed

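RNA of MDA-MB-157 cells was sequenced in 8 libraries, 4 per group, with groups and replicate numbers taken from the sample titles. The authors deposited 1 table of CPM values, scaled by TMM (trimmed mean of M values); the processing notes of the submitters name edgeR and hg38, whereas the study's methods, written first for tumors, name TopHat, hg19 and an Ensembl annotation. Which of the builds and which annotation made this table, and the counting tool, are not given in the sources used here. Whole reads were not recovered from the CPM values (72.2% to 74.0% of values under 200 reads were whole within 0.01 read), so no count test was run. Reads per library were estimated by taking the most frequent of the lowest positive values of a library as 1 read. Depths and the 3-read value cover counting error only. Of 21077 lines, 18 Y copies of pseudoautosomal genes were left out.

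Genes were compared with limma 3.58.1 in R 4.3.3 on log2(CPM + 1), with a mean-variance trend, no covariate, 2-sided, and p-values were adjusted across the 21059 genes (Benjamini-Hochberg). The script was tested on simulated data. Ratios of chains were compared with an exact permutation test. Transcript lengths and overlaps came from GENCODE v44 lifted to GRCh37, positions and promoters from RefSeq GRCh38.p14, by symbol (43 of 43 positions, 32 promoters). All collagen genes are named, with values in every library from 5 CPM and group means from 1 CPM; from each other list of the pathway, at most 3 genes with the smallest adjusted p and at least 5 CPM, and 4 genes of the folding list that rose, named after their values were seen; marker genes are named from their lists at any level. The members and lists were chosen with earlier results of these data known. Alternatives covered the pseudocount (0.1 CPM), filters at 1 and 5 CPM, 3 scalings, the trend, transcript length, the replicate number as a block and leaving out each library.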

Additional observations from a re-analysis of the deposited data

Results flagged for a closer look

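Among 88 groups of 4 libraries examined by the ratio of the largest gap to the range, at the 95% critical value of Dixon's test, 2 were marked, where chance would mark about 4.4. COL13A1 was at 0.497 CPM in low glucose replicate 2, and at 1.33 to 1.38 CPM in the other 3 low glucose libraries. COL21A1 was at 1.69 CPM in high glucose replicate 4, and at 0.776 to 0.907 CPM in the other 3 high glucose libraries.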

How the results depend on the processing

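The number of lower collagen genes, 22 of 43 as reported, lay between 17 and 23 in all alternatives, with the low end where only genes of at least 5 CPM were tested. The 5 higher genes came to 2 with filters of 1 CPM or 5 CPM and with the trend over transcript length removed, alone or with the replicate block, settings in which genes of the lowest level were not tested, and to 4 to 6 without 1 library. All called members that were tested kept their call under the other pseudocount, equal totals, the median of ratios, both filters, the removed length trend and the fit without a mean-variance trend. Quantile normalization lost COL5A3 and COL10A1, and COL13A1 gained a call (0.54, adjusted p = 0.049). In that setting the difference of COL3A1 was -0.51 (adjusted p = 0.0191), against -1.61 as reported. The -0.51 is set by the ranks of COL3A1 and does not measure the size of its fall. The filter of 1 CPM gained COL21A1 (adjusted p = 0.025). Removing the length trend gained COL11A2 (-0.32), COL21A1 (-0.56) and COL27A1 (-0.22, adjusted p = 0.0386). COL7A1 changed sign to -0.018 with the length trend removed, with and without the block, and lay between -0.048 and 0.080 in the fits without 1 library; it passed in none. Per kilobase, the shares at low and high glucose were 71.5% and 62.5% for fibrillar, 12.3% and 14.3% for network, 12.3% and 16.9% for beaded and 3.97% and 6.34% for the other collagens. The differences of the 4 ratios that passed without high glucose replicate 4 ranged, without 1 library each, as COL1A1 to COL1A2 from 0.31 to 0.54, COL4A1 to COL4A2 from -0.073 to -0.014, COL6A1 to COL6A2 from 0.18 to 0.25 and COL8A1 to COL8A2 from 0.94 to 1.12. Genes under 1 CPM are limited by depth, since 3 reads were worth 0.212 to 0.267 CPM.

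The replicate numbers did not pair the samples: deviations of same-numbered libraries correlated at 0.0692, -0.028, 0.0136 and -0.0403. With the replicate block, 21 collagen genes were lower and 5 higher; COL10A1 (adjusted p = 0.0768) and COL11A1 (0.0666) lost their call and COL21A1 gained one (0.0419). With the block, chain ratios allow no exact p under 0.125.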

Other observations

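Across the 28 collagen genes of at least 1 CPM, the level at low glucose per kilobase and the difference between the groups had a Spearman coefficient of -0.52, and transcript length and the difference one of 0.18. Over all 14227 genes of that level with a length, the level in CPM and the difference had 0.0553, and over the 28 collagen genes -0.49. The low glucose libraries enter both measures and all genes share the same 8 libraries, so these values are descriptions. Pairs that lie head to head, adjacent or near each other did not share 1 pattern. COL4A1 and COL4A2 differed between the groups by -1.07 and -1.03, COL3A1 and COL5A2 by -1.61 and -0.75, and COL4A4 and COL4A3 by 0.94 and 0.13. COL19A1 and COL9A1, 2592 bases apart, differed by -0.60 and 0.02. COL4A6 and COL4A5, 379 bases apart, differed by 0.16 and -0.03. Of these, COL9A1, COL4A5 and COL4A6 were under 1 CPM. COL6A1 and COL6A2 are not adjacent (93063 bases apart with 3 RefSeq genes between) and differed by -0.66 and -0.88.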
